A study of Mus musculus with 2 samples.

Results

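Metallothioneins Mt1 and Mt2, their regulator Mtf1 and the zinc transporters Slc30a1, Slc30a2, Slc39a8, Slc39a10 and Slc39a14 were followed in white fat of obese mice given Entacapone or vehicle. These are 8 of the 37315 genes counted. They were chosen by function, with the entacapone to vehicle differences of the same libraries already known, so their differences are given as a description and are not tested. The entacapone library was made from white adipose tissue of male C57BL/6 mice, 23 weeks old, with obesity induced by a high-fat diet and treated with Entacapone, a catechol-O-methyltransferase inhibitor used in Parkinson disease. The vehicle library came from mice of the same strain, sex, age and diet that were given vehicle. The series title names the inguinal depot. Each treatment had 1 library, and no source used here gives the dose, the duration or the number of mice behind a library. There is therefore no replicate check, and each difference is one between these 2 libraries. Intervals are exact 95% intervals of counting error alone and leave out variation among mice, tissue pieces and library preparations.

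Zinc inside cells is held in a narrow range by proteins that bind it and by transporters that move it. Metallothioneins are small cysteine-rich proteins that bind zinc and copper, and in mouse tissues Mt1 and Mt2 are induced together by metals, glucocorticoids and inflammatory signals. MTF1 is a zinc-finger transcription factor that senses zinc and binds metal response elements in the metallothionein promoters and in that of Slc30a1. Proteins of the Slc30 (ZnT) family move zinc out of the cytosol, across the plasma membrane or into vesicles and organelles. Those of the Slc39 (ZIP) family move it into the cytosol.

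The metallothioneins stood apart from the other zinc genes in these libraries. Both were more than 2-fold higher in the entacapone library, whereas the regulator Mtf1 and the exporter Slc30a1 differed by less than counting error. Slc39a14 was higher by a smaller factor, Slc39a10 was slightly lower, Slc39a8 was within counting error and Slc30a2 was barely detected. Zinc handling thus names the function of these genes and not a shared difference.

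Mt1 (ENSMUSG00000031765, chromosome 8, 94179082 to 94180327, plus strand, GRCm38) had 13030 reads and 1018 CPM (reads per 1000000 reads of the scaled library) in the entacapone library, against 5465 reads and 396 CPM in the vehicle library. The entacapone value was 2.57 times the vehicle value (2.49 to 2.66), a log2 ratio of 1.36 (1.32 to 1.41). Mt2 (ENSMUSG00000031762, chromosome 8, 94172664 to 94173568, plus strand) had 10703 reads and 836 CPM in the entacapone library, against 4166 reads and 302 CPM in the vehicle library. Its ratio was 2.77 (2.68 to 2.87), a log2 ratio of 1.47 (1.42 to 1.52). Both genes were thus high in the entacapone library, and their counting intervals lay far from a ratio of 1. Together Mt1 and Mt2 made up 0.183% of the counted reads of the entacapone library and 0.0707% of those of the vehicle library, a summed 1854 CPM with entacapone against 697 CPM with vehicle, which is a ratio of 2.66 (2.60 to 2.72). In a bulk sample, a difference in the number of cells that express a gene and a difference in the RNA per cell cannot be told apart.

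**Figure D1:**
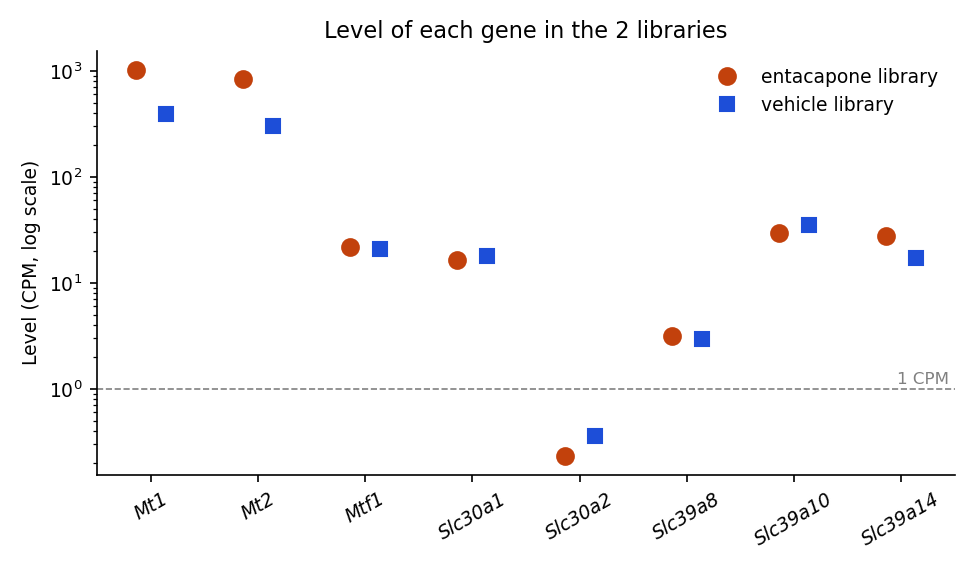
Level of each of the 8 genes in CPM (vertical axis, log scale) in the entacapone library (circles) and the vehicle library (squares), 1 library each. Mt1 and Mt2 lie at 1018 and 836 CPM in the entacapone library against 396 and 302 CPM in the vehicle library, and Slc30a2 lies under the dashed line at 1 CPM in both.

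The metallothioneins kept nearly the same proportion to each other. Mt2 gave 45.1% of the reads of the pair in the entacapone library (44.5 to 45.7, Wilson 95% interval) and 43.3% in the vehicle library (42.3 to 44.3). These intervals did not overlap, so the ratio of Mt2 was above that of Mt1 by slightly more than counting error. Read-length sequence did not mix the genes. None of the 1342 different windows of 101 bases in Mt1 transcripts and none of the 503 in Mt2 transcripts occurred in a transcript of any other gene of GENCODE M21, and the longest run shared by both was 20 bases. An antisense RNA gene, Gm45774, covers 432 of the 588 exon bases of Mt2 on the opposite strand, and a library kit that does not mark strand cannot separate the reads.

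Genes near the metallothioneins on chromosome 8 did not show a difference of that size. The 4 metallothionein genes span 43.131 kb (94137197 to 94180327), and 5.514 kb lie between the end of Mt2 and the start of Mt1. Mt3, a metallothionein best known from brain, had 3 reads in the entacapone and 4 in the vehicle library. Mt4, the metallothionein of stratified squamous epithelium, had 1 read in the entacapone and 5 in the vehicle library. At this depth no difference in Mt3 or Mt4 could be detected, since their ratio intervals ran from 0.119 to 4.79 and from 0.00456 to 1.93. On one side of the cluster, the nearest protein-coding gene above 1 CPM was Bbs2, at 11.3 CPM with entacapone against 10.5 CPM with vehicle (log2 ratio 0.10, -0.24 to 0.44). On the other side it was the nuclear pore gene Nup93, at 28.4 CPM with entacapone and 37.9 CPM with vehicle (-0.41, -0.61 to -0.22). Of the 3 nearest on each side, none reached 2-fold in either direction, beside 1.66% higher and 3.50% lower over all genes. At such shares few genes of any kind would be called among so few, so nothing is read from this count. Beyond counting error, Herpud1 was also lower (-0.23, -0.36 to -0.11) and Nlrc5 was higher (0.26, 0.09 to 0.42). Nudt21 and Ogfod1 were within it.

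The promoters of Mt1, Mt2 and Slc30a1 are shown because all carry the letters that MTF1 is known to bind, while only the metallothionein transcripts differed by 2-fold. Sequences are RefSeq promoter windows on GRCm38.p6, from 250 bases before to 50 after the annotated start, written 5′ to 3′ on the plus strand, which is the strand of each gene. Capitals mark the core of the metal response element, searched as TGCACNC and TGCGCNC on both strands. The windows lie at chr8:94178839-94179138 for Mt1, chr8:94172368-94172667 for Mt2 and chr1:191906531-191906830 for Slc30a1.
Mt1: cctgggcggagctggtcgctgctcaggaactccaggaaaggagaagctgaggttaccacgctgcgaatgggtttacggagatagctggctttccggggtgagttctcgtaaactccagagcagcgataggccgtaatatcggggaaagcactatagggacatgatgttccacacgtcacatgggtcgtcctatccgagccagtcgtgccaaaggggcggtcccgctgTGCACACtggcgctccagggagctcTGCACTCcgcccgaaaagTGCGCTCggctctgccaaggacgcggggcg
Mt2: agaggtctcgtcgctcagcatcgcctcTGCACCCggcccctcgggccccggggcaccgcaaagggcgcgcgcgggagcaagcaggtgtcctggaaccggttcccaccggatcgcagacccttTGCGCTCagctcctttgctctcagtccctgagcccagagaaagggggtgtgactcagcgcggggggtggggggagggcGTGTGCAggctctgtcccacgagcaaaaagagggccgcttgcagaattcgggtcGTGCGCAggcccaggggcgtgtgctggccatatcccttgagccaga
Slc30a1: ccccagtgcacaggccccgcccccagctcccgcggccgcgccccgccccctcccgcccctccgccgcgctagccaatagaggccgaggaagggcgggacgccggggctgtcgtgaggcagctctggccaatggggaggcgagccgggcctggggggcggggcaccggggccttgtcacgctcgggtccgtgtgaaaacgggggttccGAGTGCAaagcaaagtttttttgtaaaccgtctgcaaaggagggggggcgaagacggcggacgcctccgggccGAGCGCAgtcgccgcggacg

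Mt1 held 3 cores, at -23 to -17, 3 to 9 and 21 to 27 bases from the annotated start (1 is the first transcribed base). Mt2 held 4, at -223 to -217 and -128 to -122 on the plus strand, and at -50 to -44 and 5 to 11 on the minus strand. These positions use the RefSeq start, and where transcription of these genes starts in fat was not measured. A start further along would put more of the marked cores before the gene, and cores past the window would not be seen. The GENCODE start of Mt2 (94172664) lies near the end of the window (94172667), so by GENCODE the core at 5 to 11 lies before the gene. Slc30a1 held 2, both on the minus strand, at -43 to -37 and 31 to 37. Of all 32851 promoter windows of this length, 25.7% held at least 1 core. At least as many as Slc30a1 were held by 7.11%, as many as Mt1 or more by 1.97%, and as many as Mt2 or more by 0.517%. No core lay in the window of Mtf1, in either window of Slc39a10 or in the first window of Slc39a8. The second window of Slc39a8 held 1, and Slc30a2 held 2. Among the zinc genes outside the 8, Slc30a4 and Slc30a10 each held 3, as many as Mt1, and other windows held at most 1. In Slc30a10, 2 of the 3 overlapped on opposite strands, at -233 to -227 and -232 to -226, and were counted separately. Slc39a14 was the 1 gene of the 8 with no window in the table.

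Other motifs were sparse in these windows. The antioxidant response element core TGACNNNGC, searched on both strands, was found in Mt2 at -79 to -71 and in Slc30a1 at -82 to -74, and in 12.4% of all windows. The glucocorticoid receptor motif TGTTCT, searched on both strands, was found in neither metallothionein window, in the Mtf1 window at -223 to -218 and in 19.0% of all windows. A match is a run of letters and not a measured binding site, and a motif outside the window would not be seen.

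**Figure D2:**
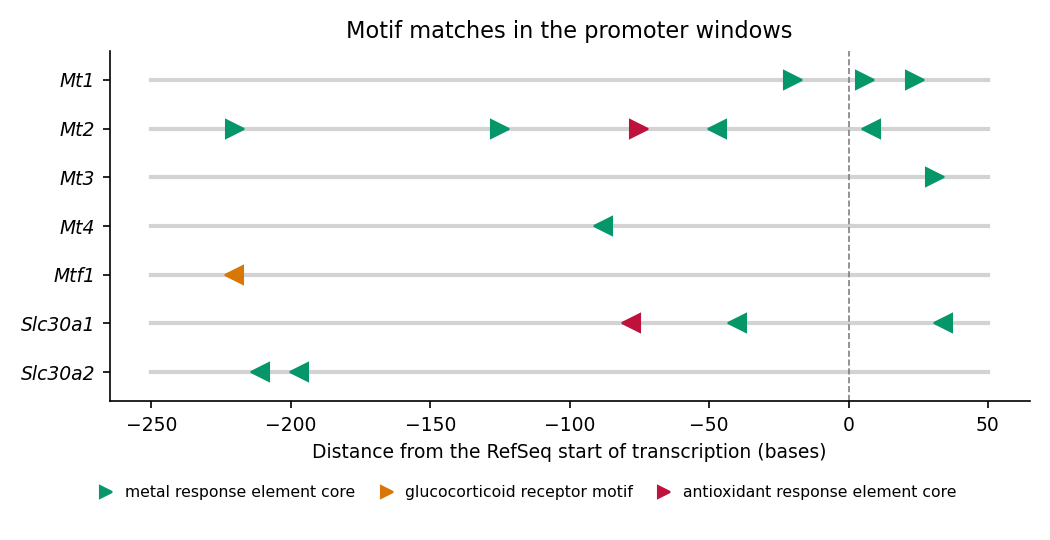
Positions of motif matches in the RefSeq promoter windows of metallothionein genes, Mtf1, Slc30a1 and Slc30a2, in bases from the annotated start (dashed line). Arrowheads point along the strand of the match; metal response element cores number 3 in Mt1, 4 in Mt2 and 2 in Slc30a1.

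Mtf1 (ENSMUSG00000028890, chromosome 4, 124802104 to 124849800, plus strand), the zinc-sensing activator, had 278 reads and 21.7 CPM in the entacapone library, against 289 reads and 20.9 CPM in the vehicle library. Its log2 ratio was 0.05 (-0.19 to 0.30), and its counting interval ended at a ratio of 1.23. Slc30a1 (ENSMUSG00000037434, chromosome 1, 191906767 to 191913247, plus strand) encodes the zinc exporter of the plasma membrane, a known target of MTF1. It had 208 reads and 16.3 CPM in the entacapone library, against 245 reads and 17.7 CPM in the vehicle library. The log2 ratio of Slc30a1 was -0.13 (-0.40 to 0.15). Its interval ended at a ratio of 1.11, well under the ratios of the metallothioneins. Of 8907 exon bases of Mtf1, 721 are shared with 1110065P20Rik on the opposite strand, a gene that had 118 reads in the entacapone and 114 in the vehicle library.

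Slc39a14 was the transporter with the clearest difference. It encodes ZIP14, which carries zinc, iron and manganese into cells and is known to be induced in mouse liver during inflammation. Slc39a14 (ENSMUSG00000022094, chromosome 14, 70303469 to 70351425, minus strand) had 355 reads and 27.7 CPM in the entacapone library, against 237 reads and 17.2 CPM in the vehicle library. The entacapone value was 1.62 times the vehicle value (1.37 to 1.91), a log2 ratio of 0.69 (0.45 to 0.94), and it did not reach 2-fold. Slc39a8 (ENSMUSG00000053897, chromosome 3, 135825279 to 135888572, plus strand) encodes ZIP8, the closest relative of ZIP14. It had 40 reads and 3.13 CPM in the entacapone library, against 41 reads and 2.97 CPM in the vehicle library. With so few reads the log2 interval of Slc39a8 was wide (0.07, -0.59 to 0.74), and it held both no difference and one as large as that of Slc39a14.

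Slc39a10 lay in the opposite direction. It encodes ZIP10, an importer of the plasma membrane whose gene MTF1 is known to repress in mouse cells. Slc39a10 (ENSMUSG00000025986, chromosome 1, 46807544 to 46892852, minus strand) had 375 reads and 29.3 CPM in the entacapone library, against 484 reads and 35.0 CPM in the vehicle library. The ratio was 0.836 (0.729 to 0.959), a log2 ratio of -0.26 (-0.46 to -0.06), just beyond counting error. Slc30a2 (ENSMUSG00000028836, chromosome 4, 134343181 to 134354484, plus strand) encodes ZnT2, which loads zinc into vesicles and is known for the zinc of milk. It had 3 reads in the entacapone and 5 in the vehicle library, a ratio of 0.648 with an interval of 0.101 to 3.33, so nothing can be said about its direction. Slc30a2 was the 1 gene of the 8 with a mean under 1 CPM.

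**Figure D3:**
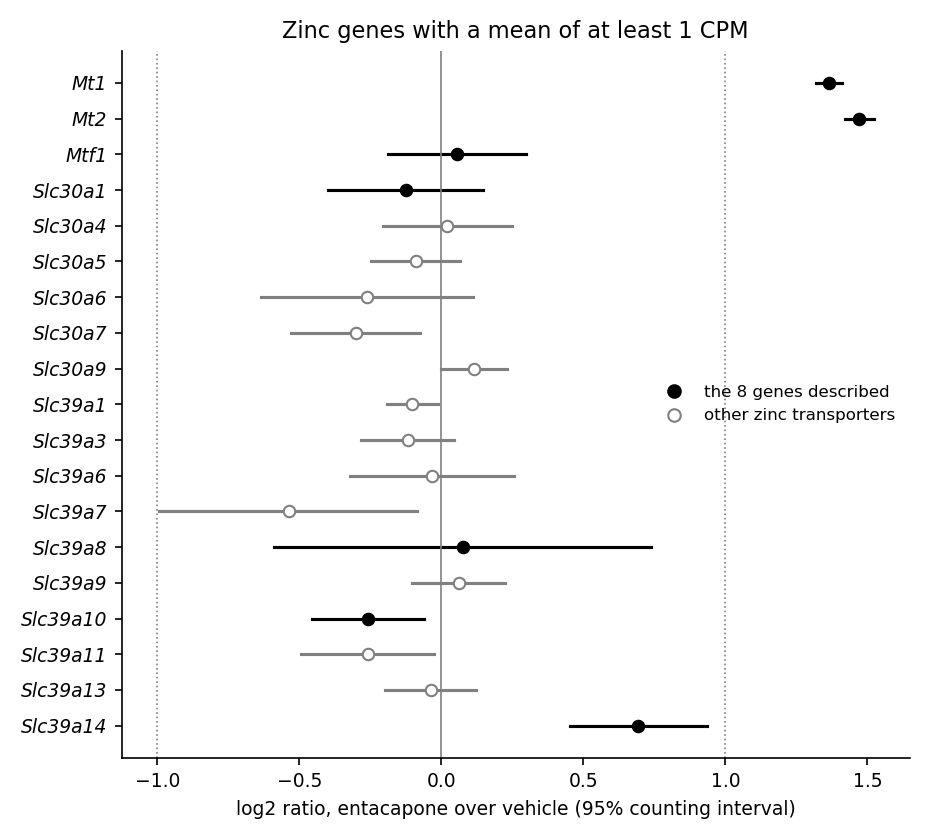
Log2 ratio of entacapone over vehicle (horizontal axis) with exact 95% counting intervals for the 19 zinc genes whose mean reached 1 CPM, filled for the genes described and open for other transporters. Dotted lines mark 2-fold; Mt1 (1.36) and Mt2 (1.47) lie beyond them, and Slc39a14 (0.69) is the next highest.

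Of the 8 genes, 7 passed a mean of 1 CPM, and 2 of these were at least 2-fold higher and 0 at least 2-fold lower beyond counting error. Over all 13361 genes measured at that level, 1.66% were higher and 3.50% lower by this rule. Beyond counting error by any size, 3 of the 7 were higher and 1 was lower, beside 20.2% higher and 21.1% lower over all genes. Since these genes were picked with these values known, nothing is read from the counts. By ratio, 115 of the 13361 genes lay above Mt1, 86 above Mt2 and 510 above Slc39a14. Among the 1746 genes whose mean reached 100 CPM, 7 lay above Mt1 and 6 above Mt2.

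**Figure D4:**
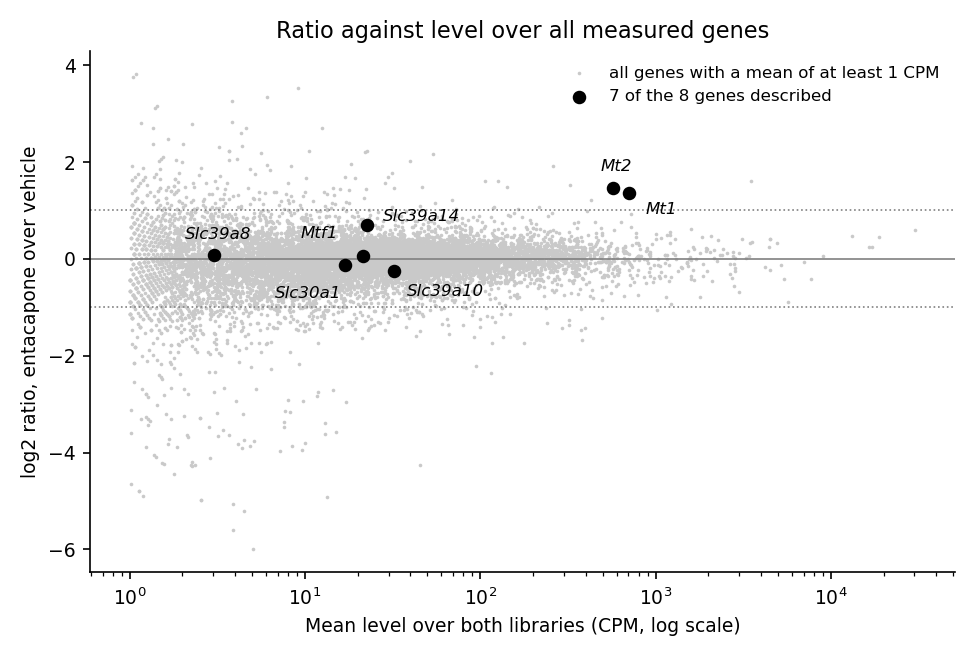
Log2 ratio of entacapone over vehicle (vertical axis) against the mean level over both libraries in CPM (horizontal axis, log scale) for all 13361 measured genes (grey) and 7 of the 8 genes described (black). Genes with no read in a library are drawn with 3 counts there; Mt1 and Mt2 lie above the upper dotted line for 2-fold at a level where few genes do.

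Levels of different genes were compared as CPM per kilobase of merged exons. On this scale Mt2 stood at 1422 (1395 to 1449) in the entacapone library and 513 (498 to 529) in the vehicle library. Mt1 stood at 817 (803 to 831) in the entacapone library and 318 (309 to 326) in the vehicle library. With the longest principal transcript as length, the order of the pair turned round, with Mt1 at 1854 and Mt2 at 1637 in the entacapone library, and Mt1 at 721 and Mt2 at 590 in the vehicle library. The order of this pair per length is thus set by the choice of length. All other genes of the 8 lay far below. On merged exons in the entacapone library, Slc39a10 came next at 4.81 (4.33 to 5.32), then Slc30a1 at 3.10 (2.69 to 3.55), Slc39a14 at 2.63 (2.36 to 2.92) and Mtf1 at 2.44 (2.16 to 2.74). The intervals of Slc30a1 and Slc39a14 overlapped, as did those of Slc39a14 and Mtf1. In the vehicle library, Slc39a10 stood at 5.75, Slc30a1 at 3.38, Mtf1 at 2.35 and Slc39a14 at 1.63, and no neighbours in that order overlapped. The place of Slc39a14 in this order also depends on the length used. With the longest principal transcript, Slc39a14 came first at 5.63 in the entacapone library, ahead of Slc39a10 at 5.33, Slc30a1 at 3.10 and Mtf1 at 2.85. In the vehicle library on that length Slc39a10 led at 6.37, with Slc39a14 at 3.48, Slc30a1 at 3.38 and Mtf1 at 2.74. No intervals are given on that length, so the order of close values there was not set against counting error. On merged exons, Slc39a8 was at 0.408 in the entacapone and 0.387 in the vehicle library. On the same merged exons, Slc30a2 was at 0.0658 in the entacapone and 0.102 in the vehicle library.

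The other members of the transporter families differed little. Of the 21 remaining metallothionein and transporter genes, 12 passed 1 CPM, and 0 of these were higher and 4 lower beyond counting error, beside 20.2% higher and 21.1% lower over all genes. None differed by 2-fold, beside 1.66% higher and 3.50% lower over all genes. Summed over all 10 Slc30 genes, the level was 214 CPM with entacapone and 218 CPM with vehicle (ratio 0.980, 0.930 to 1.03). Summed over all 14 Slc39 genes it was 388 CPM with entacapone and 402 CPM with vehicle (ratio 0.965, 0.929 to 1.003). With the main scaling, the summed level of either family therefore differed by less than counting error, in contrast to the metallothionein pair. The Slc39 interval ended barely above a ratio of 1, and the family sums were not recomputed under other scalings.

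Among the exporters, Slc30a7, a zinc transporter of the Golgi, was lower at 22.2 CPM with entacapone and 27.4 CPM with vehicle (log2 ratio -0.30, -0.53 to -0.08). Slc30a5 and Slc30a6, which pair to load zinc into the early secretory pathway, had log2 ratios of -0.09 (-0.25 to 0.07) and -0.26 (-0.64 to 0.11). Slc30a9 stood at 93.3 CPM with entacapone against 86.2 CPM with vehicle (0.11, -0.002 to 0.23), a difference that passed counting error with upper-quartile scaling and with the vehicle library thinned to the depth of the other. Slc30a4 stood at 24.4 CPM with entacapone against 24.0 CPM with vehicle. Slc30a10, a manganese exporter, had 1 read in the entacapone and 3 in the vehicle library. Slc30a3, of synaptic vesicles, and Slc30a8, of insulin granules, had 0 reads in both libraries. The exact counting intervals of both genes ended at 0.288 CPM in the entacapone library and 0.267 CPM in the vehicle library.

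Among the importers, Slc39a1, a widespread plasma membrane importer, stood at 144 CPM with entacapone against 154 CPM with vehicle (log2 ratio -0.10, -0.19 to -0.01), a difference that was within counting error with upper-quartile scaling. Slc39a7, which releases zinc from the endoplasmic reticulum, had the lowest ratio, at 5.39 CPM with entacapone against 7.82 CPM with vehicle (-0.54, -0.99 to -0.09). Of the 2584 exon bases of Slc39a7, 2084 are shared on the same strand with Gm20427, which had 1 read in each library. How reads in shared bases were counted is not given, so the level of Slc39a7 is uncertain. Slc39a11 was lower at 21.1 CPM with entacapone against 25.3 CPM with vehicle (-0.26, -0.49 to -0.03), though not once the vehicle library was thinned to the depth of the other. Slc39a3, Slc39a6, Slc39a9 and Slc39a13 were within counting error, with log2 ratios of -0.12, -0.03, 0.06 and -0.04. Slc39a2, Slc39a4, Slc39a5 and Slc39a12 lay under 1 CPM on average. Slc39a4, the intestinal zinc importer, had 10 reads in the entacapone and 3 in the vehicle library, and Slc39a5 had 15 in the entacapone and 6 in the vehicle library, with intervals that held a ratio of 1.

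Genes linked to MTF1 other than the 8 were higher in 3 and lower in 1 of 5 beyond counting error, beside 20.2% higher and 21.1% lower over all genes. None of the 5 reached 2-fold, beside 1.66% higher and 3.50% lower over all genes. The median log2 ratio of the 5 was 0.26, beside 0.004 over all measured genes. Selenow, which encodes a small selenoprotein, was at 407 CPM with entacapone and 316 CPM with vehicle (0.37, 0.31 to 0.42), and Ndrg1 at 121 CPM with entacapone against 96.1 CPM with vehicle (0.33). The iron exporter gene Slc40a1 was lower at 9.92 CPM with entacapone against 14.7 CPM with vehicle (-0.57, -0.90 to -0.24). Gclc, a subunit of the first enzyme of glutathione synthesis, was at 23.5 CPM in both. The copper list held 11 measured genes, with a median log2 ratio of 0.01, and 3 were higher and 2 lower beyond counting error, beside 20.2% higher and 21.1% lower over all genes. Its highest members were Mt2 and Mt1 themselves. The third, named after its values were seen, was Sod1, the copper-zinc superoxide dismutase, at 538 CPM with entacapone against 372 CPM with vehicle (0.53, 0.48 to 0.59). The copper-exporting ATPase gene Atp7a (-0.44, -0.81 to -0.06) and the copper importer gene Slc31a1 (-0.27, -0.44 to -0.09) were the lowest.

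Genes known to be induced by glucocorticoids, as Mt1 and Mt2 are, were mostly higher in the entacapone library. Of 14 measured, 13 were higher and 1 lower beyond counting error, beside 20.2% higher and 21.1% lower over all genes. Abundant genes pass counting error at smaller ratios, and those shares cover all genes from a mean of 1 CPM up. By at least 2-fold, 2 were higher and 0 lower, beside 1.66% higher and 3.50% lower over all genes. The median log2 ratio of the 14 was 0.75. Cebpd, a transcription factor of early adipocyte differentiation, was at 96.3 CPM with entacapone and 41.7 CPM with vehicle (1.21, 1.06 to 1.35). Errfi1, a feedback inhibitor of epidermal growth factor signalling, was at 61.3 CPM with entacapone against 28.8 CPM with vehicle (1.09, 0.91 to 1.27). Ddit4, an inhibitor of mTORC1 signalling, was the 1 lower member at 102 CPM with entacapone against 142 CPM with vehicle (-0.48, -0.58 to -0.38), and Angptl4, an inhibitor of lipoprotein lipase, was the lowest of the higher ones (0.17, 0.14 to 0.20). The part of these genes' shift in the metallothionein values was not tested.

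**Figure D5:**
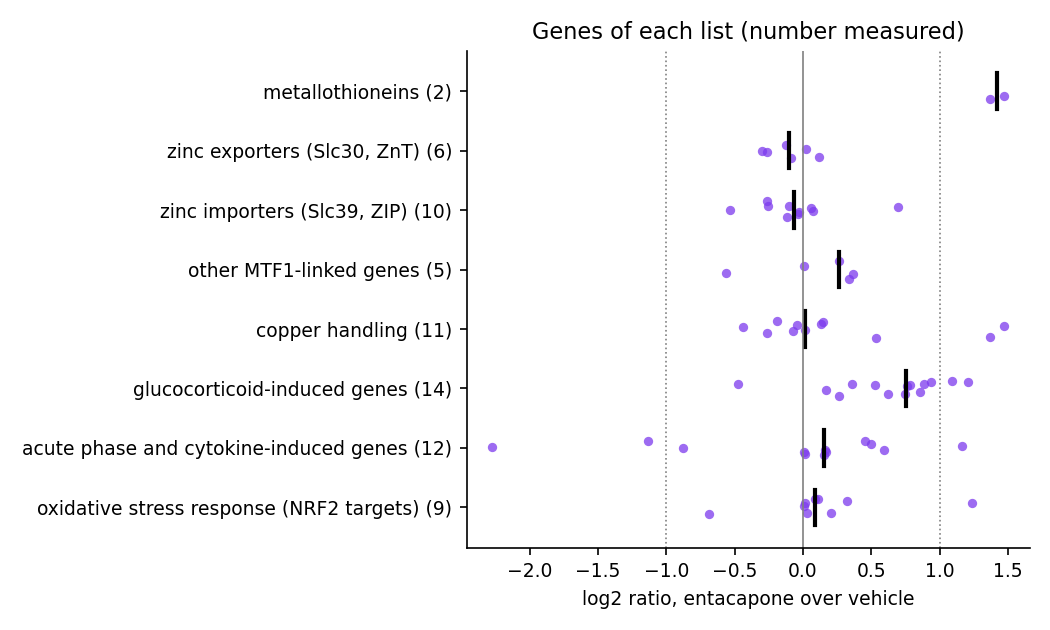
Log2 ratio of entacapone over vehicle (horizontal axis) for each measured gene (points, spread vertically at random) of 8 gene lists, with the list's median as a black bar and dotted lines at 2-fold. The metallothioneins lie beyond 2-fold, both transporter families centre close to 0, and the glucocorticoid-induced genes have a median of 0.75.

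Markers of other cell types also differed between these libraries. Of 20 hepatocyte markers, 18 passed 1 CPM and all of these were lower, with a summed 121 CPM with entacapone and 530 CPM with vehicle, and no marker was at 0. Liver is a tissue known for high Mt1, Mt2 and Slc39a14 expression. Macrophage markers were lower in 11 of 12 (861 CPM with entacapone against 1587 CPM with vehicle summed, none at 0), and fibroblast and progenitor markers in 11 of 12 (5207 CPM with entacapone against 8263 CPM with vehicle, none at 0). Skeletal muscle markers were higher in 14 of 15 measured (2496 CPM with entacapone against 1612 CPM with vehicle summed, with Tnnc2 at 0 in both). Mammary and skin epithelium markers were higher in 8 of 12 (99.3 CPM with entacapone against 30.5 CPM with vehicle, none at 0). Red blood cell markers were higher in 5 of 5 measured, at 467 CPM with entacapone against 283 CPM with vehicle summed, with Slc4a1 at 0 in the vehicle library. Mammary secretory markers summed to 19.8 CPM with entacapone and 4.49 CPM with vehicle. The casein genes Csn1s1 and Csn2 and the whey protein gene Wap had no read in either library. The 1 of these 10 markers that passed 1 CPM was Ltf, the lactoferrin gene, at 17.4 CPM with entacapone against 3.69 CPM with vehicle (log2 ratio 2.23, 1.79 to 2.70). Muc1, an epithelial mucin gene named after its values were seen, had 13 reads in the entacapone and 4 in the vehicle library. Of 10 adipocyte markers, 6 were higher and 4 lower, none by 2-fold (1.66% higher and 3.50% lower by 2-fold over all genes). All these counts are beyond counting error, beside 20.2% higher and 21.1% lower over all genes. These shares cover genes of all levels from 1 CPM up, and abundant markers pass at smaller ratios. The part of liver, muscle, epithelium, blood, macrophages and fibroblasts in the metallothionein and transporter values was not tested.

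Few genes at a like level had the ratio of the metallothioneins. Likeness was the absolute difference of log2 ratios over the 2 libraries, among protein-coding genes with a mean CPM within 2-fold. For Mt1, of 286 such genes the nearest was Mt2 at a difference of 0.11. Next came Net1, a guanine nucleotide exchange factor for RhoA (0.15), Myh4, a fast skeletal muscle myosin (0.38), and the cytochrome P450 gene Cyp2e1 (0.43). For Mt2, of 392 such genes the nearest was Ccn1, a secreted matricellular protein, at 483 CPM with entacapone and 166 CPM with vehicle and a difference of 0.07. Mt1, Net1 (0.25) and Myh4 (0.48) followed.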

How the data were processed

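Poly(A) RNA was extracted with TRIzol and oligo(dT) beads and made into TruSeq v2 libraries, per the labels' protocols; this kit does not mark strand. Deposited by the authors were raw counts of reads for each Ensembl gene, 1 file per library, with no header line. The submitters' processing notes name TopHat2 2.1.1, HTSeq 0.6.0 and mm10. No source used here gives the annotation release, how reads were assigned to genes or what was done with multiply mapped reads. Symbols, positions and exon lengths were taken from GENCODE M21 (GRCm38, the same assembly as mm10), which matched 35533 of 37315 identifiers. Promoters came from RefSeq on GRCm38.p6 and were found for 25 of 29 zinc genes.

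The entacapone library held 12979673 and the vehicle library 13620056 counted reads. CPM used effective library sizes from edgeR 4.0.16 (TMM). Ratios are entacapone over vehicle, with Clopper-Pearson intervals computed on the share of a gene's reads that the entacapone library gave; levels per length carry exact Poisson intervals. Both cover counting error only. Reads carry no molecular identifiers, so copies of 1 molecule would count as separate reads, and the intervals may be too narrow. By this counting alone, the interval around a ratio of equal counts extends by a factor of 1.33 at 100 reads per library and of 1.04 at 5000. A count of 0 was given a floor of 3 reads. No fold is given where both libraries hold 3 reads or fewer. Genes whose mean reached 1 CPM were compared, and one was counted as at least 2-fold different where its interval also held no ratio of 1. Shares over all genes are not matched for level, and a gene with more reads passes counting error at a smaller ratio. List medians used a pseudocount of 0.5 CPM. With 1 library per group no test was made.

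The 8 genes and all lists were chosen with earlier results of these data known. Named are all zinc genes, the 2 highest and 2 lowest measured genes of each other list, and the 4 genes nearest in ratio to Mt1 and to Mt2. Neighbours of the locus were chosen by position, after the data were seen. The interval calculation was tested on counts simulated with counting error alone, which checks the calculation and says nothing about variation among mice. Of the intervals, 95.5% held the true ratio, and 41 unchanged genes were called at least 2-fold different. Alternatives were DESeq2 1.42.0 size factors, total reads, upper-quartile scaling, scaling without marker genes, thinning, and other limits and pseudocounts.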

Additional observations from a re-analysis of the deposited data

How the results depend on the processing

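The 9 ratios (8 genes and the summed pair) were recomputed under 5 other scalings or depths, which gave 45 values, and 44 of these stayed inside the main interval. The exception was the summed pair with total reads (log2 ratio 1.37, against 1.41). Mt1 ranged from 1.32 to 1.38, Mt2 from 1.43 to 1.49 and Slc39a14 from 0.65 to 0.71, and no ratio of the 8 genes changed sign or its side of the counting error under any of these. Counts over all genes depended on the limits. With a minimum of 5 CPM, 84 were higher and 190 lower. With a limit of 1.5-fold, 556 of the 13361 measured genes were higher and 1056 lower. At 1.5-fold, 1 of 10 zinc importers, 9 of 14 glucocorticoid-induced and 2 of 12 acute phase genes were higher. Lower at that limit were 3 of 12 acute phase genes and 1 of 9 NRF2 target genes. With a minimum of 5 CPM, 0 NRF2 target genes were higher. Without a minimum the metallothionein median was 0.63, because Mt3 and Mt4 then entered. Levels per length, except that of Slc30a1, moved with the choice of transcript length, an alternative chosen after seeing the data.

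No paired analysis was possible because each group has 1 library. With 1 library per group, none was left out in turn. Depth limits Slc30a2, Slc39a8, Mt3 and Mt4, whose intervals are wide.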

Other observations

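Acute phase and cytokine-induced genes, the setting in which Slc39a14 is known to be induced in liver, went both ways. Of 12 measured, 7 lay higher and 3 lower than counting error allows, beside 20.2% higher and 21.1% lower over all measured genes, and the median log2 ratio was 0.16. The interleukin receptor gene Il1r1 was at 76.0 CPM with entacapone and 34.0 CPM with vehicle (a log2 ratio of 1.16), and the siderophore-binding protein gene Lcn2 at 10.2 CPM with entacapone against 6.81 CPM with vehicle (0.59, 0.20 to 0.99). Itih4, a plasma protein gene of liver, was lowest at 2.19 CPM with entacapone against 10.6 CPM with vehicle (-2.27, -2.91 to -1.68), and hepatocyte markers were lower in the same library. Serum amyloid gene Saa3 was at 7.89 CPM with entacapone against 17.3 CPM with vehicle (-1.13, -1.48 to -0.79).

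Genes induced by the oxidative stress regulator NRF2, which also acts on metallothioneins, centred close to 0. Of 9 measured, 4 lay higher and 1 lower than counting error allows, beside the same 20.2% and 21.1% over all genes, and the median log2 ratio was 0.09. Nqo1, a quinone reductase, was highest at 4.61 CPM with entacapone against 1.95 CPM with vehicle (1.24, 0.56 to 1.95), and the glutathione reductase gene Gsr was at 56.7 CPM with entacapone against 45.4 CPM with vehicle (0.32, 0.17 to 0.48). Osgin1 was lowest at 9.14 CPM with entacapone against 14.7 CPM with vehicle (-0.68, -1.03 to -0.35), and Gclc was within counting error.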
